A study of Mus musculus with 8 samples.

Results

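The Zscan4 genes are a family of near-identical copies in a single cluster on mouse chromosome 7. Entries were chosen by name: Zscan4a, Zscan4b, Zscan4c, Zscan4d, Zscan4e, Zscan4f and Zscan4-ps3, which are 7 of the 37797 gene entries of the table. The cells were male mouse embryonic stem cells, derived from 129 mice and grown without feeder cells in serum with LIF, in which Ythdc1 can be deleted (a conditional knockout, "cKO"). YTHDC1 is the nuclear reader of N6-methyladenosine on RNA. All 8 libraries come from such cKO cells. They form 4 groups of 2 libraries: 4OHT with 8 min of 4sU, DMSO with 8 min, 4OHT with 0 min and DMSO with 0 min. 4OHT (4-hydroxytamoxifen, 1 μg/ml) or its solvent DMSO was given during 4 days. Cells then received 100 μM DRB, a blocker of transcription elongation, and it was removed after 3 h. New RNA was tagged with 1 mM 4-thiouridine (4sU), a uridine analogue that carries a handle for purification, and the tagged RNA was pulled down from 100 μg of total RNA. The 0 min libraries had no labelling time. The titles give cell line ESC#1 at 0 min and ESC#2 at 8 min, but numbers 1 and 2 both appear in the column names of either time. By the titles, labelling time and cell line cannot be told apart. If the column numbers name the cell lines instead, the 2 libraries of each group differ in cell line. Which of these holds is not given in the sources used here. The labels do not say how the Cre that responds to 4OHT is expressed, nor whether libraries of a group came from separate cultures, so p-values measure the spread between libraries, which may be technical.

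Zscan4 proteins carry a SCAN domain and zinc fingers. In the mouse, their genes are best known for a burst of transcription in the 2-cell embryo, and in cultured embryonic stem cells a small and changing fraction of cells expresses them for a short time. They are known for telomere upkeep by recombination and for genome stability, and the transcription factor DUX and the proteins DPPA2 and DPPA4 are known upstream activators. Zscan4c is known as the copy most used in embryonic stem cells and Zscan4d as the copy most used in the 2-cell embryo.

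In the annotation (GRCm38.p6), the 7 genes spread over 820 kb, from base 10794241 to base 11614112 of chromosome 7. Zscan4b, Zscan4c, Zscan4d and Zscan4f are protein-coding there, Zscan4a is a transcribed pseudogene, and Zscan4e and Zscan4-ps3 are pseudogenes. Each copy spans 4.31 to 4.83 kb, and gaps between neighbouring copies run from 54.6 to 140 kb when Zscan4-ps1 and Zscan4-ps2, which were not among the chosen names, are counted. RefSeq promoter windows, from 250 bases before to 50 after the annotated start, matched 4 of the 7 genes. They are shown because they let a reader see how alike the copies are around the annotated start. Capitals mark, on the gene's strand, the TATA box TATAAA, then the CAAT box CCAAT, and further upstream TGATTNAA, the letters with which a known and longer motif of DUX begins.
Zscan4d promoter, chr7:11166099-11166398, minus strand: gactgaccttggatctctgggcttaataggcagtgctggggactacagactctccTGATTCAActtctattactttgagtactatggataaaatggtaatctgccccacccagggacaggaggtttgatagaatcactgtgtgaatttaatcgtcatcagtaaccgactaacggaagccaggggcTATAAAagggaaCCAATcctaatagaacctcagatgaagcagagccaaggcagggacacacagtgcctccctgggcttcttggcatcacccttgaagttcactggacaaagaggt
Zscan4f promoter, chr7:11397665-11397964, plus strand: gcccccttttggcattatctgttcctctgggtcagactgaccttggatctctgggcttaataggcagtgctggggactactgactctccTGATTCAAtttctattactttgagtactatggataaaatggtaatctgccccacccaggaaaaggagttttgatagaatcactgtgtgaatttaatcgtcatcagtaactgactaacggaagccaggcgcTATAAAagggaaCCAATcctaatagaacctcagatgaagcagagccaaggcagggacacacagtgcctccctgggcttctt
Zscan4c promoter, chr7:11005495-11005794, plus strand: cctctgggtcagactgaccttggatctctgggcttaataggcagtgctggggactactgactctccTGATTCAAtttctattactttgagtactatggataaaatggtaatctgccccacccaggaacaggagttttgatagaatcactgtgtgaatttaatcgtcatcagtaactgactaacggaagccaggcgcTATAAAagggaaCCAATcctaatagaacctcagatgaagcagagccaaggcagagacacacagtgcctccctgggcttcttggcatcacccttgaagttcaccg
Zscan4b promoter, chr7:10905001-10905300, minus strand: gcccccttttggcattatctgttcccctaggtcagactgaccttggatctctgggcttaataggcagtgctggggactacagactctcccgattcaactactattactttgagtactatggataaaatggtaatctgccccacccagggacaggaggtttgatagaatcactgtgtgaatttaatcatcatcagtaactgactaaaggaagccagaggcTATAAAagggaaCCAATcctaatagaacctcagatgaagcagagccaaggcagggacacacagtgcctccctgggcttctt

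These windows were 95.3% to 99.3% identical over 266 to 300 aligned bases. The closest pair was Zscan4c and Zscan4f, with 2 mismatches in 277 bases, and the farthest was Zscan4b and Zscan4c, with 13 mismatches in 277 bases. All 4 held TATAAA, beginning 31 to 65 bases before the annotated start, and downstream of it CCAAT, beginning 19 to 53 bases before the start. Over all 32851 RefSeq windows of this length, searched on both strands, 13.6% held the first and 37.4% the second. The complete DUX motif was in 0 of the 4 windows and in 0.0335% of all windows. Its beginning TGATTNAA was found on either strand in 4 of the 4 windows and in 2.87% of all windows. In Zscan4c, Zscan4d and Zscan4f the match was on the gene's strand, whereas in Zscan4b it was on the other strand and at another place. Zscan4b differed from Zscan4d by T1C in the aligned letters, counted from 1 at the first base of the match in Zscan4d on the gene's strand. Such matches describe the sequence and are not measured binding. How reads that fit several copies were counted is not given in the sources used here, so each copy's value is uncertain and the 7 values are not independent. Summed reads of the 7 genes are therefore given beside single values.

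Libraries held 93062961 to 133915996 reads at 8 min and 46340613 to 61409073 at 0 min. The deposited value of a gene was its whole number of reads divided by a single number per library, and 100% of entries came back within 0.01 of a whole number. The divisor ran from 8.10 to 29.5 and what it stands for is not given in the sources used here. Taken as deposited, the 20660 tested genes had a median change, 4OHT over DMSO, of 1.43 (log2) at 8 min and 0.28 at 0 min. Ythdc1 itself had deposited values of 2696 and 5168 in the 4OHT libraries at 8 min, against 1409 and 2708 in the DMSO libraries. That is a log2 fold change of 0.93 ± 0.64 (SE; limma adjusted p = 0.170) as deposited and of -0.51 ± 0.13 (adjusted p = 0.00491) with the 4 libraries scaled by median ratios. At 0 min Ythdc1 had 129 and 412 with 4OHT and 133 and 185 with DMSO. Relative to the median of all genes the deposited value was -0.50, close to the scaled one, and Ythdc1 averaged 285 RPM (reads per 1000000 reads of the library) with 4OHT and 404 RPM with DMSO. Which exons are deleted is not given in the sources used here, so whether these values measure the deletion was not tested. All 8 embryonic stem cell markers looked at passed the filter, among them Pou5f1 at 295 and 471 with 4OHT and 127 and 141 with DMSO at 8 min.

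At 8 min after DRB release, RNA of all 7 Zscan4 genes was far more abundant in the 4OHT libraries than in the DMSO libraries. Together they took 51.0 and 47.4 RPM with 4OHT, against 4.21 and 4.92 with DMSO, a 10.8-fold difference of the means (12.1-fold within number 1 and 9.63-fold within number 2). These were 6044 and 6347 reads in the 4OHT libraries and 470 and 458 reads in the DMSO libraries. In bulk RNA, more cells that express a gene and more RNA per expressing cell cannot be told apart.

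**Figure D1:**
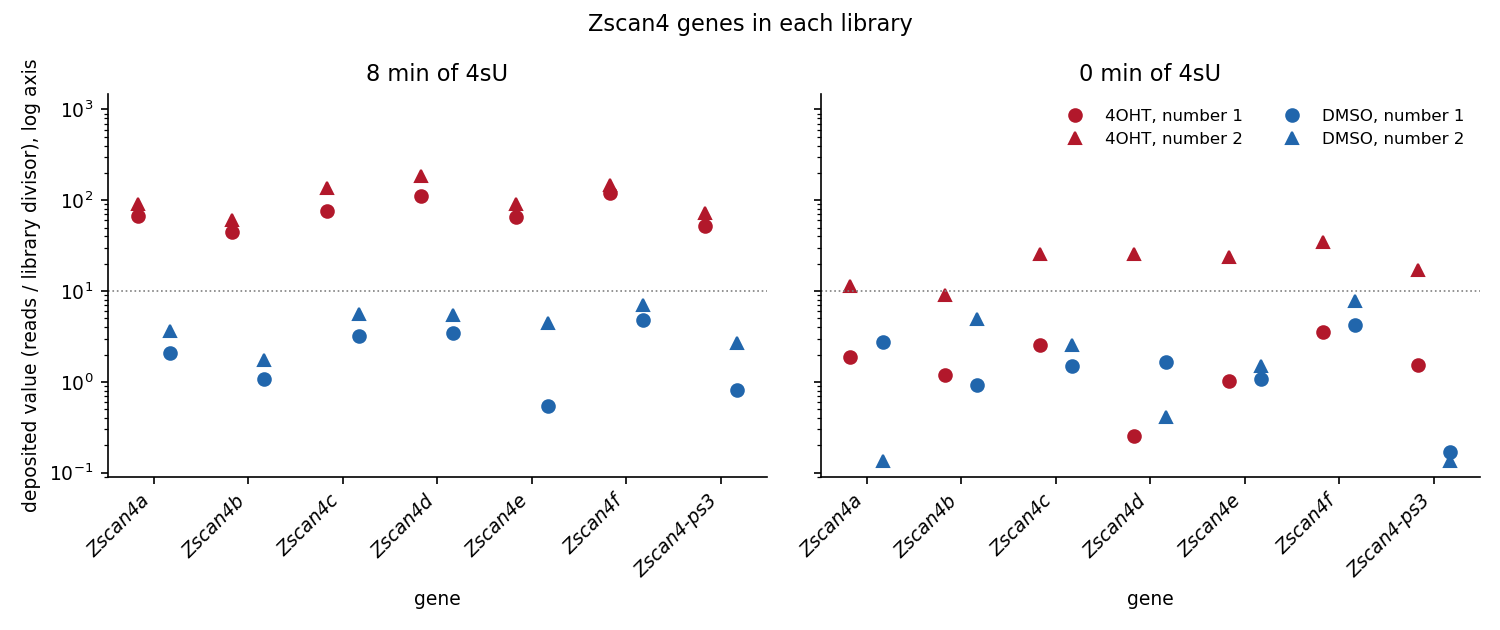
Deposited value (reads divided by the library's divisor, log axis) of each Zscan4 gene in each library at 8 min (left) and 0 min (right) of 4sU; red points are 4OHT, blue points DMSO, circles and triangles the column numbers 1 and 2, and the dotted line is the minimum of 10 used by the filter. At 8 min every 4OHT point lies at 45.1 or more and every DMSO point at 7.09 or less, whereas at 0 min the triangles of 4OHT stand above the other points of their gene.

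Of the protein-coding copies, Zscan4d, the 2-cell embryo form, had deposited values of 110 and 184 with 4OHT, against 3.46 and 5.48 with DMSO. Its log2 fold change was 4.74 ± 0.64 (SE, n = 2 libraries each; limma adjusted p = 1.05e-09), which is 3.30 above the median of all genes. Zscan4f, another protein-coding copy, had 119 and 147 with 4OHT, against 4.75 and 7.09 with DMSO. Its log2 fold change was 4.29 ± 0.63 (adjusted p = 1.70e-08). In both genes the 4OHT libraries lay far above the DMSO libraries.

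Zscan4c, the form most used in embryonic stem cells, had 76.5 and 137 with 4OHT, against 3.19 and 5.62 with DMSO (log2 fold change 4.29 ± 0.64, adjusted p = 2.81e-08). Zscan4b, the remaining protein-coding copy, had 45.1 and 60.9 with 4OHT, against 1.09 and 1.74 with DMSO (4.48 ± 0.65, adjusted p = 1.10e-08). Zscan4b was the lowest of the 7 in both 4OHT libraries, yet its 4OHT values too lay above all DMSO values.

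The copies annotated as pseudogenes showed the same order of groups. Zscan4a had 67.2 and 91.2 with 4OHT, against 2.10 and 3.61 with DMSO (4.39 ± 0.64, adjusted p = 1.70e-08). Zscan4e had 65.5 and 91.4 with 4OHT, against 0.543 and 4.41 with DMSO (4.76 ± 0.64, adjusted p = 1.05e-09). Zscan4-ps3 had 51.6 and 72.9 with 4OHT, against 0.814 and 2.67 with DMSO (4.59 ± 0.65, adjusted p = 5.69e-09). The spread within DMSO was widest for Zscan4e, which rested there on 16 and 66 reads.

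On the deposited scale, 7 of 7 genes were called higher at 8 min, where 58.7% of all tested genes were called higher and 0.131% lower. Both 4OHT libraries lay above both DMSO libraries in 7 of 7 genes, as they did in 90.3% of all tested genes. With median-ratio scaling or in RPM it was again 7 of 7, against 35.4% of all tested genes. All 7 entered the test only through their 4OHT libraries, since none reached the minimum value of 10 in a DMSO library, so this count supports nothing by itself. Relative to the median of all genes, the 7 log2 fold changes ran from 2.85 to 3.33. With the 4 libraries of 8 min scaled by median ratios, 7 of 7 were again called higher, with log2 fold changes from 2.95 to 3.66 and adjusted p between 1.92e-10 and 1.17e-07. In that fit 19.9% of all tested genes were called higher and 15.1% lower. edgeR on the whole reads of these 4 libraries called 7 of 7 higher, where it called 18.0% of all genes higher and 16.4% lower. In RPM, which needs neither the divisor nor a fit, the ratio of group means ran from 8.46 for Zscan4f to 14.5 for Zscan4-ps3.

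With all 8 libraries scaled by median ratios the 8 min estimates were 2.82 to 3.35, with limma adjusted p from 0.166 to 0.329. There 0 of 7 passed, where 22 of all 20660 tested genes did. At an unadjusted p under 0.05 it was 7 of 7, where 2421 of all tested genes did so. edgeR on the reads of 8 libraries also passed 0 of 7, where 29 of all tested genes passed. Its unadjusted p was under 0.05 in 7 of 7, and in 2293 of all tested genes. DESeq2 on the same reads passed 6 of 7, where it called 808 of all 20660 tested genes. Zscan4d was the copy that did not pass in DESeq2 (adjusted p = 0.0745). The cause of these differences between fits was not tested. With 2 libraries against 2, an exact two-sided permutation test cannot go below 0.333.

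**Figure D2:**
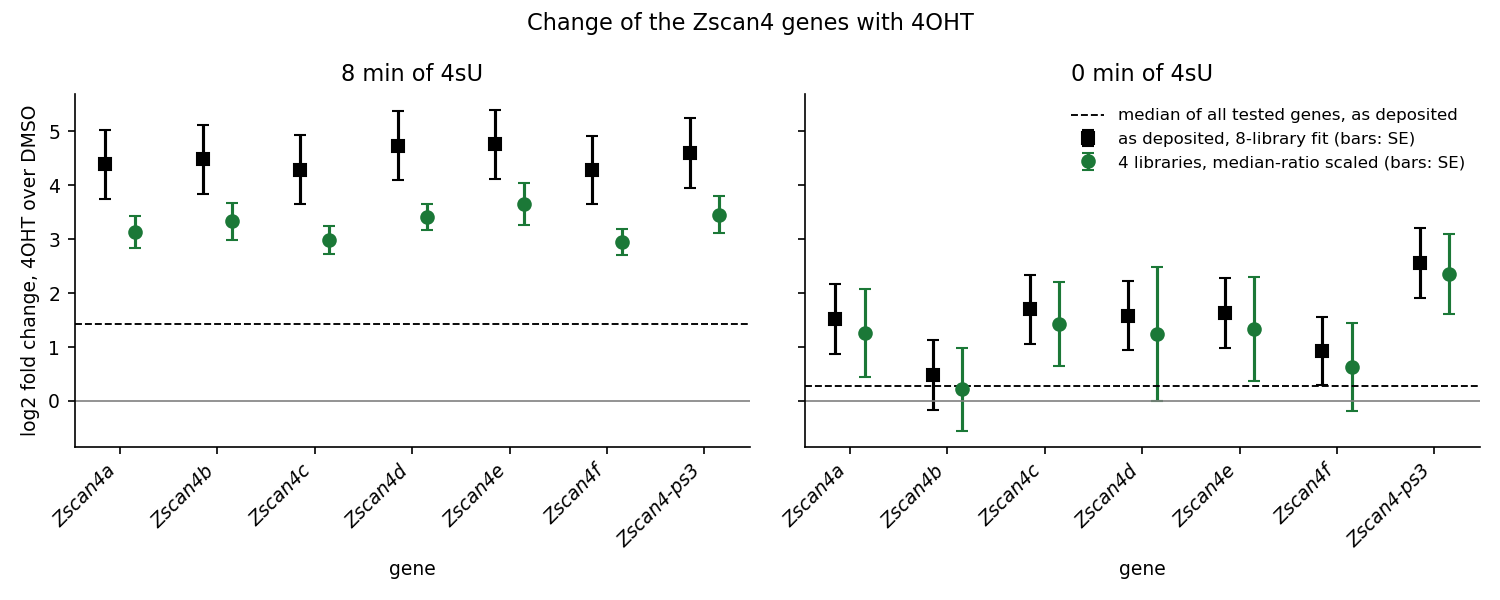
Log2 fold change, 4OHT over DMSO, of each Zscan4 gene at 8 min (left) and 0 min (right); black squares are the fit of the deposited values over 8 libraries, green circles the fit of the 4 libraries of that time after median-ratio scaling, bars are standard errors, and the dashed line is the median of all tested genes on the deposited scale (1.43 at 8 min and 0.28 at 0 min). At 8 min all 7 genes lie at 2.95 or more on either scale, and at 0 min the estimates run from 0.48 to 2.56 on the deposited scale.

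Among all 20660 tested genes, the 7 copies sat between the 31.7 and 54.8 percentile of level in the 4OHT libraries at 8 min, and between the 0.223 and 9.36 percentile in the DMSO libraries. They were thus near the middle of tested genes with 4OHT and near the bottom with DMSO. None of the 7 reached the minimum value of 10 in a DMSO library, so the filter let them in only through 4OHT libraries. Their low rank with DMSO therefore supports nothing by itself. Per kilobase of annotated gene span, the deposited level in 4OHT library 2 was 40.9 for Zscan4d, 33.4 for Zscan4f, 28.4 for Zscan4c, 21.2 for Zscan4e, 18.9 for Zscan4a, 15.2 for Zscan4-ps3 and 14.1 for Zscan4b. In 4OHT library 1 the order was the same apart from the top pair, with Zscan4f at 27.0 and Zscan4d at 24.4. Between neighbours in this order, the means of the 4OHT libraries differed by less than the larger SD of the pair (n = 2). That SD holds the divisor of each library, which moves all copies together, and in library 1 Zscan4f was well above Zscan4c, at 27.0 against 15.9. In the DMSO libraries the same measure ran from 0.126 to 1.61, with Zscan4f on top in both.

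The shares of the copies were set side by side at 8 min, where the total differed 10.8-fold. Zscan4d made up 22.0% ± 2.07 of the reads of the 7 genes with 4OHT (SD, n = 2) and 19.8% ± 2.69 with DMSO. Zscan4f made up 20.5% ± 2.49 with 4OHT and 26.5% ± 4.70 with DMSO, and Zscan4c 15.9% ± 2.20 with 4OHT and 19.2% ± 1.17 with DMSO. Zscan4a had 12.1% ± 0.658 with 4OHT and 12.5% ± 0.991 with DMSO. The mean shares of Zscan4-ps3 and Zscan4b were 9.47% and 8.09% with 4OHT and 6.92% and 6.24% with DMSO. Zscan4e made up 12.2% and 11.7% with 4OHT, against 3.40% and 14.4% with DMSO, where the libraries lay far apart. The difference between these shares was not tested.

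**Figure D3:**
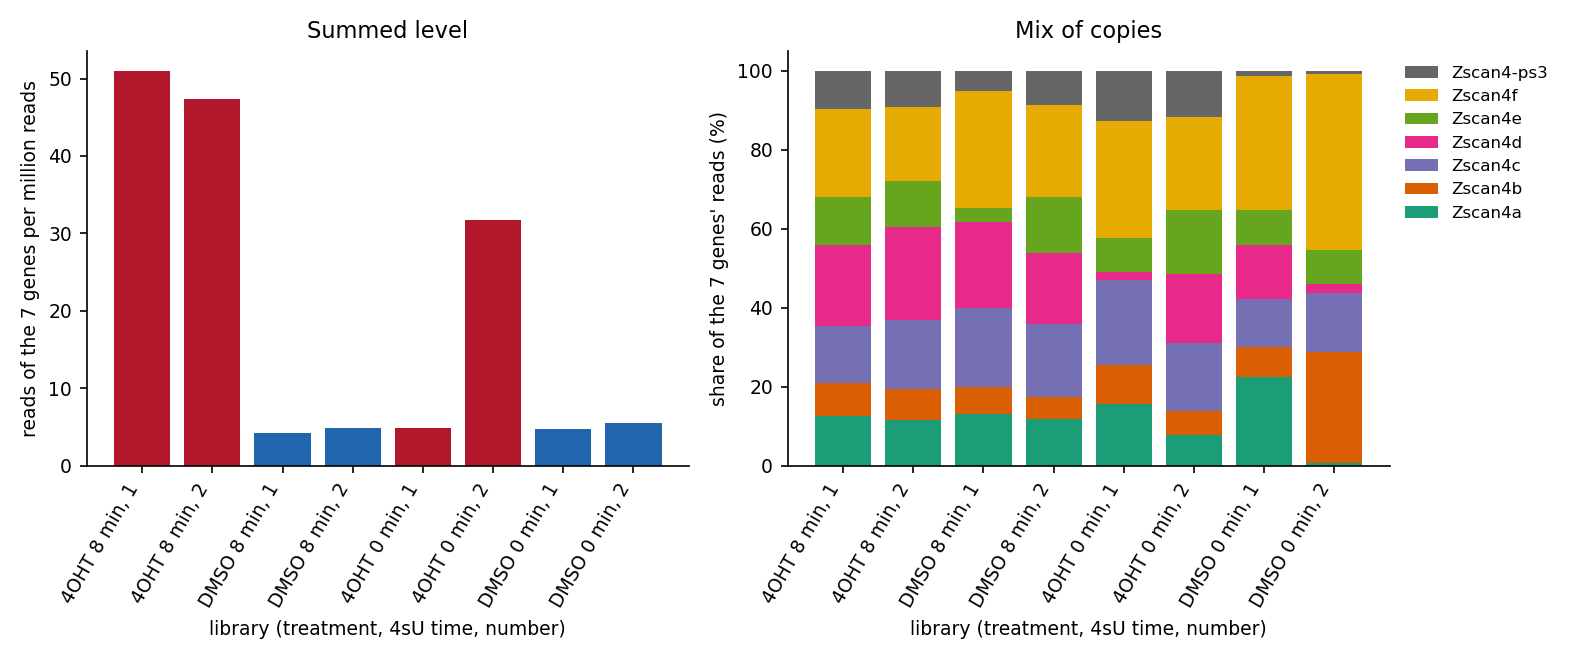
Left, summed RPM of the 7 Zscan4 genes in each library (red 4OHT, blue DMSO); right, share of each copy in those reads (%). The 4OHT libraries of 8 min reach 51.0 and 47.4 and one 4OHT library of 0 min reaches 31.7, while the other 5 libraries lie between 4.21 and 5.52 and the shares vary more between the 0 min libraries, 3 of which hold 256 to 294 reads of these genes.

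At 0 min the 2 libraries of the 4OHT group did not agree. The 7 genes together took 4.82 RPM in 4OHT library 1 and 31.7 in 4OHT library 2, against 4.79 and 5.52 in the DMSO libraries. Library 1 with 4OHT thus sat at the level of DMSO, and library 2 stood far above it. Within number 1 the ratio of 4OHT over DMSO was 1.01, and within number 2 it was 5.74. Single genes ranged from -1.09 to 1.12 within number 1 and from 0.76 to 4.25 within number 2, as log2 differences of 4OHT minus DMSO. The libraries numbered 2 also held more spike-in RNA at 0 min, with 6684 RPM with 4OHT and 6182 with DMSO, against 1013 with 4OHT and 1199 with DMSO for number 1. The part of this in the result was not tested, nor that of a cell line, should the numbers name cell lines.

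The split was seen in the single copies. Zscan4d had deposited values of 0.256 and 25.8 with 4OHT at 0 min, against 1.67 and 0.407 with DMSO. Zscan4f had 3.54 and 34.8 with 4OHT, against 4.18 and 7.73 with DMSO. Zscan4c had 2.56 and 25.5 with 4OHT, against 1.51 and 2.58 with DMSO. In Zscan4d and Zscan4f the lower 4OHT library lay below both DMSO libraries, and in Zscan4c between them, so the groups overlapped.

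Zscan4e had 1.02 and 23.6 with 4OHT, against 1.09 and 1.49 with DMSO, and Zscan4a had 1.88 and 11.3 with 4OHT, against 2.76 and 0.136 with DMSO. Zscan4-ps3 was the copy whose groups did not overlap, with 1.54 and 17.3 with 4OHT, against 0.167 and 0.136 with DMSO, which were 4 and 2 reads. Of entries under 100 reads, 81.6% to 89.8% held an even number in each library, so both mates of a pair may have been counted, and the fragments behind low read numbers may be fewer than the reads. Zscan4b had 1.19 and 8.95 with 4OHT, against 0.920 and 4.88 with DMSO. Both 4OHT libraries lay above both DMSO libraries in 1 of 7 genes, where 15.4% of all tested genes did so. With median-ratio scaling it was 2 of 7 against 9.70% of all tested genes, and by share of each library's reads 2 of 7 against 11.5%.

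The fitted log2 fold changes at 0 min ran from 0.48 ± 0.65 for Zscan4b to 2.56 ± 0.65 for Zscan4-ps3 (SE), and limma called 0 of 7, with adjusted p from 0.793 to 1. The background was 0.0% of all tested genes called in either direction, and 5 of 7 genes, or 549 of all tested genes, had an unadjusted p under 0.05. edgeR called 0 of 7, and DESeq2 called 1, Zscan4-ps3 (adjusted p = 0.00197), where it called 129 of all 20660 tested genes. Without 4OHT library 1 of 0 min, 5 of 7 passed (log2 fold changes of the 7 from 1.57 to 3.99), where 201 of all tested genes did, and without 4OHT library 2 the changes ran from -0.63 to 1.14 with 0 passing. The 0 min change thus rested on 4OHT library 2.

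The difference of the 4OHT effect between 8 and 0 min was positive for each of the 7 genes in the limma fit, from 2.03 ± 0.92 for Zscan4-ps3 to 4.01 ± 0.91 for Zscan4b (log2, SE). The median of this difference over all tested genes was 1.15. It passed for 2 of 7, Zscan4b (adjusted p = 0.0204) and Zscan4f (3.37 ± 0.89, adjusted p = 0.0446), where 0.392% of all tested genes passed in this direction. All 7 stayed below 10 in every DMSO library and entered the test only through 4OHT libraries, so this count supports nothing by itself. With the 8 libraries scaled by median ratios 0 of 7 passed. Without 4OHT library 2 of 0 min 7 of 7 passed, while the genes that passed in all were 1812, against 81 with every library. Without DMSO library 1 of 0 min 1 of 7 passed (74 genes in all), and without any other single library 0 of 7. In edgeR and DESeq2 the estimate for Zscan4-ps3 was negative, at -1.41 and -1.54. In either 0 of 7 passed, where 0 and 165 of all tested genes did.

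Between labelling times within 4OHT, all 7 genes were higher at 8 min than at 0 min, with log2 fold changes from 3.20 to 4.63, 7 of 7 called where 74.0% of all tested genes were called higher and 0.823% lower. Relative to the median of all genes, which was 2.50, these were 0.70 to 2.13. With the 4 libraries scaled by median ratios 1 of 7 passed, Zscan4a (1.77 ± 0.58, adjusted p = 0.0477), where 34.5% of all tested genes passed as higher and 20.0% as lower. edgeR on these 4 libraries called 0 of 7, where it called 24.6% of all genes higher and 25.2% lower. Its unadjusted p was under 0.05 in 0 of 7, and in 12101 of all 20660 tested genes. Within DMSO the changes ran from -0.49 for Zscan4b to 1.47 for Zscan4d, and 1 of 7, Zscan4d, passed (adjusted p = 0.0453) where 47.0% of all tested genes passed as higher and 1.96% as lower. After scaling 0 of 7 passed within DMSO in limma (35.3% of all genes higher and 21.1% lower) and 0 of 7 in edgeR (26.6% higher and 26.0% lower). In both 0 of 7 had an unadjusted p under 0.05, where 12950 of all 20660 tested genes did in limma and 12313 in edgeR. DESeq2 on 8 libraries called 1 of 7, Zscan4b, as lower at 8 min (-2.24, adjusted p = 0.0270), where it called 12467 of all 20660 tested genes. In RPM the sum of the 7 genes with DMSO was 4.21 and 4.92 at 8 min and 4.79 and 5.52 at 0 min.

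Both remaining Zscan4 copies of the cluster were higher with 4OHT at 8 min. Zscan4-ps2 had 96.8 and 158 with 4OHT, against 5.49 and 4.01 with DMSO (log2 fold change 4.45 ± 0.64, limma adjusted p = 8.26e-09). Zscan4-ps1 was the lowest copy, with 18.1 and 19.8 with 4OHT, against 0.475 and 1.60 with DMSO (3.34 ± 0.65, adjusted p = 5.35e-05). At 0 min, Zscan4-ps2 followed the chosen genes, with 1.79 and 23.9 with 4OHT and 2.18 and 3.66 with DMSO, whereas Zscan4-ps1 had 0.341 and 1.77 with 4OHT and 0.669 and 3.25 with DMSO.

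Within 500 kb on either side of the 7 genes, 34 further entries of the annotation were in the table and 6 of them were tested. With the 4 libraries of 8 min scaled, 3 were called higher and 0 lower, where 19.9% and 15.1% of all tested genes were. All 3 stayed below 10 in every DMSO library, so the filter let them in only through 4OHT libraries and the count supports nothing by itself. They were both extra Zscan4 copies and Gm18204, a pseudogene whose lower coordinate lies 14.6 kb above that of Zscan4d. Gm18204 had 29.7 and 45.2 with 4OHT, against 3.05 and 5.08 with DMSO (scaled log2 fold change 1.63 ± 0.32, adjusted p = 2.73e-04). At 0 min it had 0.768 and 20.8 with 4OHT, against 1.76 and 2.71 with DMSO, so its high 0 min library was the same one. The zinc finger gene Zik1 (0.12) and the pseudogenes Gm6929 (0.30) and Gm6900 (-0.46) lie outside the outermost copies and did not pass, and Gm6900 was at 0.85 on the deposited scale. The 28 untested entries reached at most 14.1 with 4OHT and 3.66 with DMSO at 8 min.

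**Figure D4:**
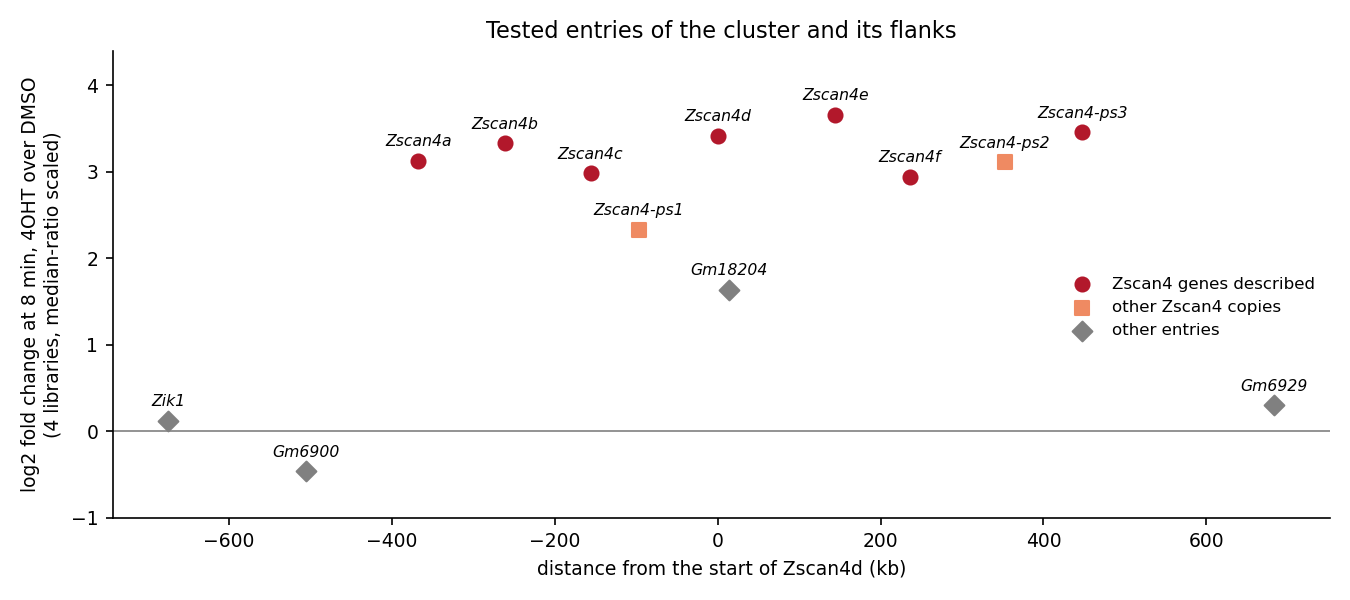
Scaled log2 fold change at 8 min, 4OHT over DMSO, of the 13 tested entries in and around the cluster, against distance from the lower coordinate of Zscan4d in kb. The 7 genes described (red) and Zscan4-ps2 lie between 2.95 and 3.66, Zscan4-ps1 and Gm18204 at 2.33 and 1.63, and the 3 outer entries between -0.46 and 0.30.

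The genes whose pattern over the 8 libraries was most like the mean of the 7 were named by the smallest root mean square difference of log2(value + 1), after centring each library on the median of tested genes and each gene on its own mean. This distance was 0.194 for Gm5662, 0.337 for Usp17le, 0.351 for Zscan4-ps2, 0.359 for Gm2016 and 0.441 for Smad6, where the median of all tested genes was 1.49. Next came Gm5039 (0.501), Prmt8 (0.512), Gm21293 (0.512), Gm44593 (0.535) and Gm12800 (0.536). The 7 genes themselves lay between 0.177 and 0.649, and Zscan4c was the 1 copy closer to the mean than Gm5662. Gm5662, Gm2016 and Gm5039 are annotated on chromosome 12. Smad6, the inhibitory SMAD of BMP signalling, had 223 and 302 with 4OHT at 8 min, against 14.1 and 22.1 with DMSO. At 0 min it had 8.44 and 36.9 with 4OHT, against 9.20 and 10.7 with DMSO. Usp17le, a ubiquitin-specific protease gene, had 55.1 and 68.3 with 4OHT at 8 min, against 2.51 and 3.48 with DMSO. Prmt8, an arginine methyltransferase gene, had 77.2 and 117 with 4OHT and 4.07 and 6.42 with DMSO. The likeness is a description over 8 libraries that share their divisors.

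Genes often switched on with Zscan4 in 2-cell-like cells were 19 in the table, of which 9 were tested. In the scaled 8 min fit 7 of 9 were called higher and 0 lower, where 19.9% of all tested genes were called higher, with a median log2 fold change of 2.29 against 0.03 for all genes. Of the 7 called, all but Arg2 stayed below the minimum of 10 in every DMSO library and entered the test only through 4OHT libraries, so this count and median support nothing by themselves. Gm5662 (3.30), Gm4340 (3.21), Usp17le (2.71), Usp17lb (2.49), Usp17la (2.29), Gm8300 (1.90) and the arginase gene Arg2 (0.78) passed. Sp110 (0.74, adjusted p = 0.0865) and Ubtfl1 (-0.82, adjusted p = 0.331) did not. The 19 entries summed to 30.8 and 26.7 RPM with 4OHT and 7.88 and 6.10 with DMSO at 8 min, and to 10.7 and 27.2 with 4OHT and 7.30 and 15.2 with DMSO at 0 min.

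The 5 known upstream activators that were tested had smaller estimates than the Zscan4 genes. Duxf3, the copy of the Dux gene in the table, was near 0, with 1.06 and 0.618 with 4OHT and 0.204 and 0 with DMSO at 8 min, and was not tested. Zfp352, which was also untested, had 10.6 and 8.65 with 4OHT, against 0.204 and 0 with DMSO. Of 5 activators tested, 1 was called higher in the scaled fit and 0 lower, where 19.9% and 15.1% of all tested genes were. It was Dppa4, with 343 and 533 with 4OHT against 76.3 and 129 with DMSO (scaled log2 fold change 0.67 ± 0.12, adjusted p = 1.88e-04). Its partner Dppa2 (0.28), Nelfa (0.26), Tbx3 (0.20) and the remodeller gene Smarca5 (0.10) did not pass. On the deposited scale all 5 were called higher, where 58.7% of all genes were.

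Of 20 repressors of Zscan4 and the 2-cell state tested, 2 were called higher and 6 lower in the scaled fit, where 19.9% and 15.1% of all tested genes were. The higher ones were Zmym2 (0.81 ± 0.11, adjusted p = 4.32e-06) and E2f6 (0.87 ± 0.17, adjusted p = 2.68e-04), both encoding proteins of repressor complexes. Max (0.16) and the histone demethylase gene Kdm1a (0.28) did not pass. The lowest, Uhrf1, a maintenance factor of DNA methylation that was picked out after its value was seen, had 272 and 417 with 4OHT and 189 and 268 with DMSO (-0.86 ± 0.12, adjusted p = 5.26e-06). The deposited scale gave it 0.58, so its sign flips with the scaling, as it does for the other 5 called lower. Relative to the median of all genes, the deposited log2 fold changes of these 6 were negative too, with Uhrf1 at -0.86. On the deposited scale 8 of 20 were called higher, where 58.7% of all genes were.

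Telomere proteins, which Zscan4 is known to work beside, showed small changes. In the scaled fit 0 of 12 were called higher and 1 lower, Terf2ip, a shelterin gene (-0.37 ± 0.12, adjusted p = 0.0182). Rtel1, Tert, Pot1b, Blm, Terf2, Atrx, Pot1a, Terf1, Daxx, Tinf2 and Acd ranged from -0.33 to 0.26. Of 7 recombination proteins 0 were called higher and 1 lower, the meiotic cohesin gene Smc1b (-0.41 ± 0.14, adjusted p = 0.0314), with Rad50, Nbn, Mre11a, Smc1a and Dmc1 between -0.34 and 0.16. Of 11 other SCAN zinc finger genes 1 was called higher, Zscan2 (0.83 ± 0.30, adjusted p = 0.0316). Zscan20, Zscan29, Zscan30, Zscan25, Zscan26, Zscan22, Zscan10, Zscan18, Zscan12 and Zscan21 ranged from -0.19 to 0.49. On the deposited scale 6 telomere, 4 recombination and 10 other SCAN genes were called higher, where 58.7% of all genes were. The scaled background was 19.9% higher and 15.1% lower for each of these lists.

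**Figure D5:**
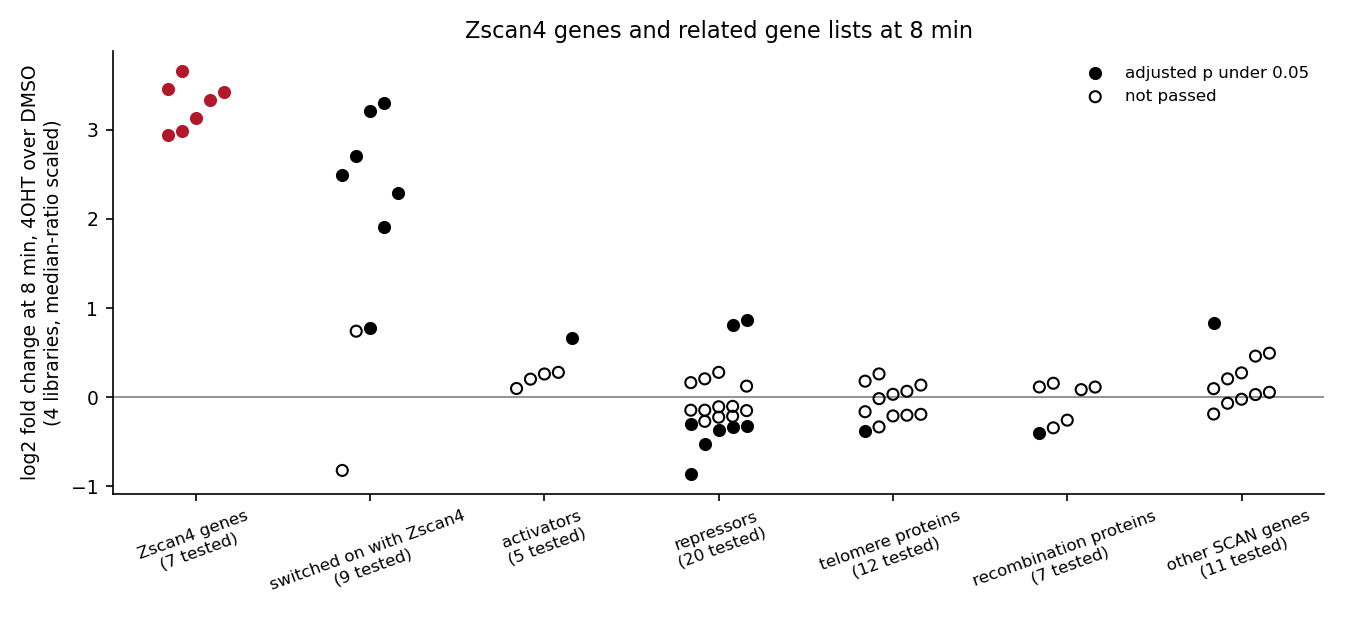
Scaled log2 fold change at 8 min, 4OHT over DMSO, of the 7 Zscan4 genes (red) and of the tested genes of 6 related lists; filled points passed an adjusted p of 0.05 and open points did not. The Zscan4 genes lie between 2.95 and 3.66, genes switched on with them reach 3.30, and the other lists stay between -0.86 and 0.87.

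Markers of other cells were looked at beside these results. In the scaled fit of 8 min, 19.9% of all tested genes were called higher and 15.1% lower. Of 4 tested fibroblast and feeder markers, the scaled fit of 8 min called 0 higher and 3 lower, and the list summed to 127 and 126 RPM with 4OHT and 186 and 180 with DMSO, with Col3a1 and Thy1 too low to test. Primitive endoderm markers summed to 11.6 and 11.9 with 4OHT and 11.3 and 9.12 with DMSO, and 1 of 4, Dab2 (0.73), was called higher. Trophoblast markers summed to 9.27 and 9.56 with 4OHT and 9.85 and 9.66 with DMSO, with Krt7 called higher (1.37) and Tfap2c lower (-0.57). Of 8 embryonic stem cell markers 1, Sox2, was called higher (0.46) and 3 lower, Nanog (-0.98), Tdgf1 (-0.63) and Dppa5a (-0.45). On the deposited scale 0 markers of these 4 lists were called lower, where 0.131% of all tested genes were. The markers called lower in the scaled fit had positive log2 fold changes there, but negative ones relative to the median of all genes. Their part in the Zscan4 result was not tested.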

How the data were processed

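RNA tagged with 4sU after DRB release was sequenced in 8 libraries, with 46340613 to 133915996 reads. The deposited values are a signal, the whole reads of a gene divided by 1 number per library, as found from the values; the divisor's meaning is not given in the sources used here. The submitters' processing notes name bcl2fastq, STAR 2.7, Bowtie2 and mm10, without roles. Columns were matched to groups by treatment and time in their names, and columns naming no treatment were taken as DMSO.

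Genes with a value of at least 10 in at least 2 libraries were tested (20660), on log2(value + 1), with limma 3.58.1 (R 4.3.3; 4 groups, trended variance) and Benjamini-Hochberg adjustment over all tested genes at 0.05. Fold changes on this scale understate the change of low genes. A second fit used the 4 libraries of a comparison, scaled by median ratios. Whole reads were recovered within 0.01 for 100% of entries and tested with edgeR 4.0.16 and DESeq2 1.42.0. Only the limma fit of all 8 libraries was tested on simulated data. Other alternatives were a pseudocount of 0.5 or 5, testing without the filter or with a minimum of 100, scaling by spike-ins or 8-library median ratios, leaving out each library, and a block for the column number. The edgeR fit of 4 libraries was chosen after seeing the data.

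The Zscan4 genes and the gene lists were chosen with earlier results of these data known. Named were the Zscan4 entries, Ythdc1, the 10 genes most alike, every tested gene of lists of up to 12, and the 4 of smallest p in longer lists; exceptions are stated, and 1 listed gene is not reported here. Sequences are RefSeq's (GRCm38.p6). Labelling for 4 min was not analysed here.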

Additional observations from a re-analysis of the deposited data

Results flagged for a closer look

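The 4OHT effect differed between 8 and 0 min by the interaction term of the limma fit, on the deposited scale, for 3 Zscan4 entries. There the median of this difference over all tested genes was 1.15. All 3 entries stayed below 10 in every DMSO library, so the filter let them in only through 4OHT libraries. Of the 7 chosen genes, 0 passed with 8-library median ratios, spike-in scaling, edgeR or DESeq2. The 8 min effect exceeded the 0 min effect by 4.01 (log2, adjusted p = 0.0204) in Zscan4b, by 3.37 (adjusted p = 0.0446) in Zscan4f and by 3.81 (adjusted p = 0.0246) in Zscan4-ps1. In these 3 entries both 4OHT libraries lay above both DMSO libraries at 8 min and the groups overlapped at 0 min. By the titles, labelling time and cell line cannot be told apart in this difference.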

How the results depend on the processing

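At 8 min the members' log2 fold changes stayed positive under all alternatives run, from 2.82 to 5.11, and from 3.86 to 5.67 with a library left out, where 7 of 7 were called each time. Fewer were called with a minimum of 100 (2, since only 2 were tested), 8-library median-ratio scaling (0), spike-in scaling (2), edgeR on 8 libraries (0) and DESeq2 (6). In these fits, in the same order, 7699 of 10332 tested genes, then 22, 31, 29 and 808 of 20660 were called. The number of all genes called higher ran from 2 to 17088, and from 240 to 14357 with a library left out; called lower, from 2 to 3380 and from 3 to 37. At 0 min DESeq2 called 1 member, where it called 129 of all tested genes. The difference between times was called for 1 member with a pseudocount of 0.5 (25 genes in all) and for 7 with 5 (542 genes). It was called for 0 with no filter, a minimum of 100, either scaling, edgeR or DESeq2, where 0 to 165 genes were called. The last pair turned Zscan4-ps3 to -1.41 and -1.54. For 8 against 0 min within 4OHT the count was 2 (minimum of 100), 1 (4 libraries scaled) and 0 (8-library scaling, edgeR on 4 or 8 libraries, DESeq2). All genes called, in either direction, were 8817 of 10332 with the minimum of 100 and 11242 of 20660 with 4 libraries scaled. In the fits with 0 members they were 10290 to 12504 of 20660. Within DMSO it was 0 under a pseudocount of 5, no filter, a minimum of 100, all scalings, both edgeR fits and the replicate block. There 6433 of 10332 genes were called with the minimum of 100, 9294 of 37057 with no filter, and 9675 to 12870 of 20660 in the others. DESeq2 called Zscan4b alone, as lower (-2.24), where it called 12467 of all tested genes.

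The column numbers were not taken to pair the samples, since deviations of same-numbered libraries did not correlate above 0.1 in every pair of groups: the correlation was 0.465 between 4OHT and DMSO at 0 min and 0.0205 to 0.156 in the others. With the replicate block 7 members were called at 8 min (17153 of all genes), 0 at 0 min (0), 6 for the difference (6226), 7 within 4OHT (17022) and 0 within DMSO (12870).

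Signs turned as follows. Ythdc1 at 8 min was -0.55 with 8-library scaling, -0.41 with spike-ins, -0.51 with 4 libraries scaled, -0.54 with either edgeR fit and -0.62 with DESeq2. Within DMSO, under edgeR on 4 libraries, edgeR on 8 and DESeq2, Zscan4a was -0.50, -0.51 and -0.44, Zscan4c -0.20, -0.20 and -0.16, Zscan4e -0.57, -0.58 and -0.52, and Zscan4f -1.28, -1.28 and -1.25. With 8-library and 4-library scaling Zscan4e was -0.37 and -0.30 and Zscan4f -0.89 and -0.84, and with spike-ins Zscan4b was 0.90. The cause was not tested.

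The following effect sizes come from fits with a library left out. The 0 min log2 fold change ran from -0.62 to 1.57 in Zscan4b, -0.63 to 3.79 in Zscan4d, -0.17 to 3.43 in Zscan4e, -0.57 to 2.41 in Zscan4f, -1.14 to 0.21 in Zscan4-ps1, -0.46 to 2.69 in Zscan4-ps2 and -0.28 to 1.38 in Ythdc1. Within DMSO it ran from -1.30 to 0.32 in Zscan4b, -0.56 to 1.25 in Zscan4e and -0.36 to 0.40 in Zscan4f. Precision is limited in the DMSO libraries, where single members had 2 to 140 reads.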
